A study of Canis lupus familiaris with 30 samples.

Results

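HIF1A and the glycolysis genes GAPDH, PGK1 and ENO1 were examined in canine lymphoma (cL) as 4 of 8 listed genes and of 32704 Ensembl gene IDs in the deposited FPKM values. FPKM is a read count scaled by transcript length and by sequencing depth. A gene of the list was included where the study's tables pair its symbol with a gene ID, which gave HIF1A (ENSCAFG00000015718), GAPDH (ENSCAFG00000015077), PGK1 (ENSCAFG00000017270) and ENO1 (ENSCAFG00000019697). LDHA, PKM, HK2 and SLC2A1 had no such ID and were not analysed here. All 4 included genes passed the filter of a mean above 1 FPKM, as did 14257 gene IDs in all.

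Enlarged lymph nodes of 15 pet dogs were sampled by fine needle aspiration, and the dogs were enrolled with no restriction on breed, sex or age. Each dog gave 1 library at the initial timepoint, before treatment, and 1 at the six-week timepoint, during CHOP, a combination of cyclophosphamide, doxorubicin, vincristine and prednisone. A dog could have had a single prednisone injection before the initial sample, so that this timepoint may not be free of drug in every dog. Immunophenotype labels were B-Cell in 7 dogs (003, 027, 029, 030, 033, 034 and 037), T-Cell in 3 (028, 036 and 038) and Unknown in 5 (024, 025, 026, 031_032 and 035). An aspirate holds all cells of the node, tumor and other, and in such bulk RNA fewer cells of a type and less RNA per cell cannot be told apart.

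HIF1A encodes the oxygen-regulated subunit of the transcription factor HIF-1. Its protein is hydroxylated and degraded when oxygen is present and is stable when oxygen is low, so that transcript levels do not measure HIF-1 activity. HIF-1 is known to activate genes for glucose uptake and for glycolysis, the pathway that splits glucose into pyruvate with a gain of ATP. GAPDH, PGK1 and ENO1 act in its second phase: GAPDH oxidizes glyceraldehyde 3-phosphate, PGK1 then transfers a phosphate to ADP, and ENO1 makes phosphoenolpyruvate. Proliferating lymphocytes and lymphoma cells are known for high glycolysis. GAPDH, PGK1 and ENO1 are also known for processed copies elsewhere in mammalian genomes, and reads may have been split between near-identical copies, so that the levels of these 3 genes are uncertain.

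Total counts per library were 4318394 to 43413353, with a median of 16327922. The shallowest was that of dog 036 at six-week sampling. In most dogs the six-week library had the lower total, as in dog 025 (20613641 initially and 6609226 later) and dog 036 (12592735 and 4318394). It had the higher total in dogs 024, 029 and 033. Depth thus ran with the timepoint, and its part in the changes was not tested. In 6 dogs (024, 027, 028, 029, 030 and 035) the deposited counts did not rank genes like the FPKM values of the same library, with per-library Spearman values of -0.058 to 0.050 over genes, against 0.820 to 0.909 in the other 9 dogs. FPKM values of all 15 dogs were therefore used, and counts of the 9 dogs only. Markers of cell types went against the label of dog 038 at the initial timepoint. In this dog, labelled T-Cell, the summed FPKM of 2 B cell markers (PAX5 and CD22) was 134.7 and that of 5 T cell markers (CD3D, CD3E, CD5, TRAT1 and LCK) was 33.9, and the B cell sum was 1.42 and 4.95 in the other T-Cell dogs. In dog 029, labelled B-Cell, a T cell sum of 399.5 stood beside a B cell sum of 63.8. For HIF1A, GAPDH, PGK1 and ENO1, changes and differences that rest on the labels are given with and without each of these dogs, where a comparison includes it. For the other genes of glucose metabolism they are given only with these dogs included.

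At the initial timepoint ENO1 was the highest of the 4 genes, HIF1A was next, and GAPDH and PGK1 were lowest. The lowest, median and highest FPKM of ENO1 were 113.1, 213.8 and 454.1, with a mean of 208 ± 83.9 (SD, n = 15). For HIF1A they were 73.7, 105.9 and 194.4, with a mean of 118 ± 39 (SD, n = 15). GAPDH had 33.7, 57.4 and 105.7 FPKM (61.3 ± 19.03), and PGK1 had 43.3, 55.8 and 122.9 (61.4 ± 20.7). ENO1 exceeded HIF1A in 13 of 15 initial libraries, by a median ratio of 1.88. HIF1A exceeded GAPDH in 14 of 15, by a median ratio of 1.83. GAPDH exceeded PGK1 in 6 of 15, and the levels of these neighbours did not differ beyond their spread. Against all 14257 gene IDs tested, ENO1 lay at a median percentile of 96.0 over the 30 libraries, HIF1A at 93.8, GAPDH at 88.8 and PGK1 at 88.4.

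Dog 035, of Unknown immunophenotype, had the highest initial ENO1 and PGK1, and dog 024, also Unknown, the highest GAPDH. HIF1A was highest in dogs 027 (194.4), 025 (183.1) and 030 (170.6). Of these, dogs 030 and 025 were also next after dog 035 in PGK1. The spread between dogs, as the SD in percent of the mean, was 33.1% for HIF1A, 31.0% for GAPDH, 33.7% for PGK1 and 40.4% for ENO1. At the six-week timepoint it was 35.3% for HIF1A and wider for the enzymes, at 48.2% for GAPDH, 54.4% for PGK1 and 64.7% for ENO1.

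At the six-week timepoint the lowest, median and highest FPKM of ENO1 were 57.5, 118.6 and 376.1, with a mean of 169 ± 109 (SD, n = 15). HIF1A had 62.7, 91.4 and 195.6 (102 ± 36.0), GAPDH 24.6, 52.4 and 130.7 (55.6 ± 26.8), and PGK1 30.5, 51.4 and 145.0 (63.2 ± 34.4). The values of the 2 timepoints overlapped for all 4 genes. ENO1 now exceeded HIF1A in 10 of 15 libraries. HIF1A exceeded GAPDH in 13 of 15 and GAPDH exceeded PGK1 in 7 of 15.

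**Figure D1:**
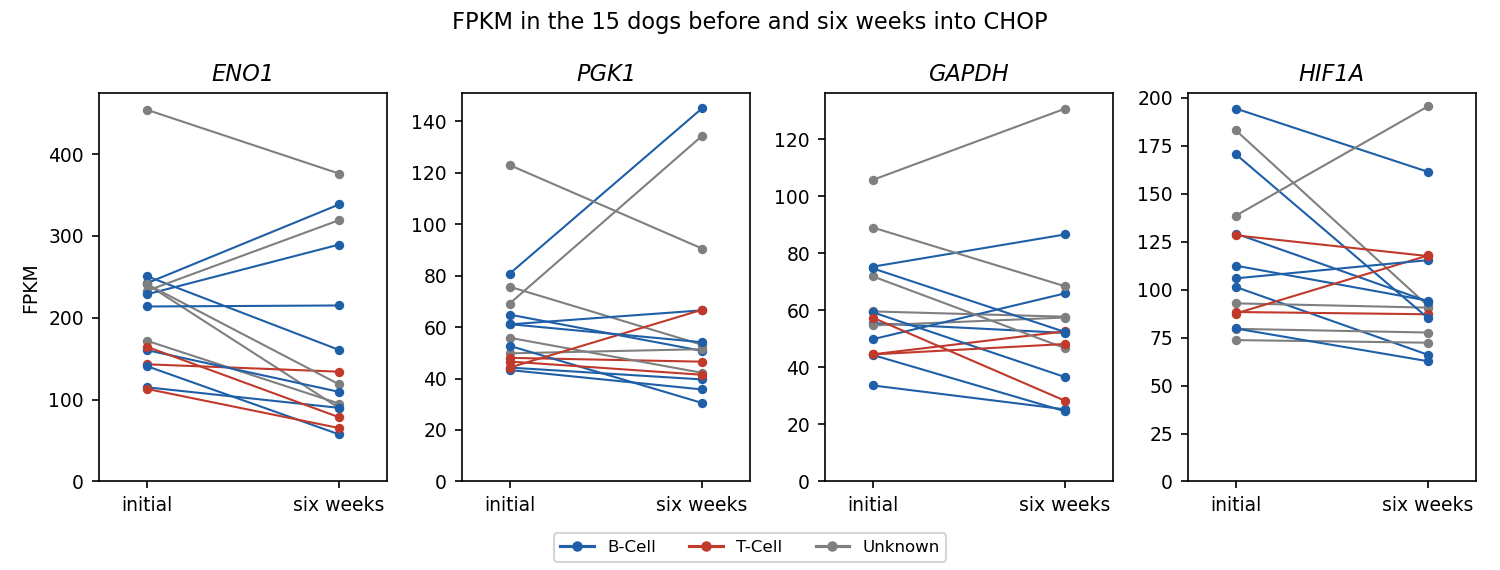
FPKM (y axis, from 0, with a scale of its own in each panel) of ENO1, PGK1, GAPDH and HIF1A in each of the 15 dogs at the initial and the six-week timepoint; each line is a dog and its color the immunophenotype label. ENO1 lines slope down in 11 of 15 dogs and HIF1A lines in 12 of 15, while the PGK1 lines of dogs 024 and 030 rise steeply.

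The comparison of timepoints asked what differed between them within the same dogs. All dogs were treated, so CHOP and the passing of time cannot be told apart. ENO1 was lower at the six-week timepoint in 11 of 15 dogs, HIF1A in 12, PGK1 in 10 and GAPDH in 9, and none of the 4 genes passed the test over all genes. On the scale of log2(FPKM+1), with the dog as a block, the change of ENO1 was -0.47 (SE 0.151, 95% interval -0.79 to -0.15, limma adjusted p = 0.303). HIF1A changed by -0.21 (SE 0.112, interval -0.44 to 0.03, adjusted p = 0.434) and GAPDH by -0.21 (SE 0.113, interval -0.45 to 0.02, adjusted p = 0.426). PGK1 changed by -0.05 (SE 0.123, interval -0.31 to 0.21, adjusted p = 0.901). The median change of the 4 genes was -0.21, beside -0.01 over all genes tested. These sets are not alike, since IDs came from the study's tables. Those tables are shortened by p-value and include its tests between the same timepoints. limma called 0% of the 14257 genes at an adjusted p under 0.05, and 1823 had an unadjusted p under 0.05.

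The size of the ENO1 change varied widely between dogs. It was largest in dog 025, from 241.1 to 89.7 FPKM, in dog 034, from 140.9 to 57.5, in dog 036, from 164.6 to 78.4, and in dog 031_032, from 241.2 to 118.6. ENO1 was higher at 6 weeks in dog 030 (242.1 to 338.5), dog 024 (232.8 to 319.3) and dog 027 (228.6 to 289.4), and near level in dog 037 (213.8 to 215.0). The 4 dogs with the largest decrease thus stood at 0.372 to 0.492 of their initial value, and those 3 with an increase at 1.27 to 1.40 of it. Cell type markers also moved in those 4 dogs. The T cell sum went from 36.2 to 401.6 FPKM in dog 025 and from 86.1 to 326.2 in dog 034. It went from 701.4 to 231.7 in dog 036 and from 103.1 to 62.2 in dog 031_032. The B cell sum went from 123.2 to 34.1, 106.5 to 39.7, 1.42 to 38.1 and 132.8 to 166.2 in the same order. The part of the cell mix in the ENO1 changes was not tested.

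HIF1A was close to level in 4 dogs and changed more in a few. Dogs 024, 026, 028 and 031_032 kept 0.976 to 0.987 of their initial HIF1A. In dog 025 HIF1A went from 183.1 to 91.4 FPKM and in dog 030 from 170.6 to 85.1, a ratio of 0.499 in both. It was higher at 6 weeks in dog 035 (138.5 to 195.6), dog 036 (87.5 to 117.8) and dog 037 (105.9 to 115.4).

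PGK1 had the largest increases of any of the 4 genes. In dog 024 it went from 69.2 to 134.3 FPKM and in dog 030 from 80.8 to 145.0, ratios of 1.94 and 1.80. In dog 036 it went from 44.3 to 66.7. The largest decrease was in dog 033, from 52.7 to 30.5. GAPDH was higher at 6 weeks in dogs 024, 026, 027, 028, 030 and 038, by ratios of 1.05 to 1.32. Its largest decreases were from 57.4 to 28.3 in dog 036 and from 44.3 to 24.6 in dog 033.

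All 4 genes were lower at 6 weeks in 6 dogs (003, 025, 029, 031_032, 033 and 034), and in no dog were all 4 higher. Only 1 of the 4 was lower in dogs 024, 027 and 030, and in each of these dogs it was HIF1A. PGK1 and ENO1 changed in the same direction in 12 of 15 dogs, as did GAPDH and PGK1, and GAPDH and ENO1 did in 11. HIF1A changed in the direction of ENO1 in 10 of 15 dogs, of PGK1 in 9 and of GAPDH in 6. Each gene was lower in most dogs, so many agreements would arise without a link between genes.

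The 9 dogs whose counts follow the FPKM values and the other 6 gave different values for ENO1. The split was made from the agreement of counts with FPKM, after the data were examined. In size and in immunophenotypes it matches the Cluster Groups that the study compared for progression-free survival, whose members the labels do not give, so that a technical and a clinical difference cannot be told apart here. In the 9 dogs the ENO1 change in FPKM was -0.84 (SE 0.151, limma adjusted p = 0.222), and ENO1 was lower in 8 of 9. In the 6 dogs it was 0.093 (SE 0.136, adjusted p = 0.934), and ENO1 was lower in 3 of 6. The difference of the 2 changes, 6 dogs minus 9, was 0.94 (SE 0.218, adjusted p = 0.455) for ENO1, 0.46 (SE 0.208, adjusted p = 0.473) for GAPDH, 0.43 (SE 0.235, adjusted p = 0.514) for PGK1 and -0.01 (SE 0.233, adjusted p = 0.995) for HIF1A. It passed in 0 of 14257 genes, and 1478 had an unadjusted p under 0.05. In a check of the pairs, dogs 025, 031_032, 034, 036, 037 and 038, all among the 9, did not correlate best with their own partner. Of these, dog 031_032 was paired by elimination and the others by the number in their labels. The cell type sums of dogs 025, 031_032, 034 and 036 also moved, as given above. Why these libraries correlated less was not tested. The ENO1 values of the 9 dogs thus rest in part on pairs that this check did not bear out.

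The counts of the 9 dogs allowed count tests. ENO1 had a mean CPM, the count per library total scaled by edgeR's TMM factors, of 347 ± 103.96 (SD, n = 9) initially and 179 ± 95.8 later. These factors came from all gene IDs, and edgeR's test took its own from the genes past the count filter. The CPM means and the edgeR change are thus on different scales. edgeR's quasi-likelihood test put the ENO1 change at -0.81 on the log2 scale (SE 0.168, adjusted p = 0.264) and called 0% of 11790 genes, 1720 of which had an unadjusted p under 0.05. DESeq2 with the donor as a factor, the tool and design of the study, gave -0.86 (SE 0.182, adjusted p = 0.0011). DESeq2 called 630 of 11510 genes, and 238 of them, or 2.07% of genes tested, were lower, ENO1 among them. With each of the 9 dogs left out in turn, DESeq2 called ENO1 in 9 of 9 fits (adjusted p = 4.85e-05 to 0.0107) and edgeR in 0 of 9 (adjusted p = 0.200 to 0.559). GAPDH had -0.41 in DESeq2 (adjusted p = 0.064) and passed only without dog 003, PGK1 had -0.24 (adjusted p = 0.331) and passed only without dog 036, and HIF1A had -0.21 (adjusted p = 0.484) and passed in none of the 9 fits. The ENO1 call thus depended on the tool, and its direction in these dogs did not. Both tools took the dogs as pairs, so the call also rests on the dogs named above that did not correlate best with their own partner. ENO1 had its ID from tables of the study that are shortened by p-value, so the call is not independent of the study's own tests.

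Genes of proliferating cells moved beside the glycolysis enzymes. The summed FPKM of 7 of 8 listed markers (MKI67, TOP2A, CDK1, BUB1, AURKA, PLK1 and CCNA2) ranged from 125 to 831 with a median of 488 before treatment, and from 87.7 to 741 with a median of 318 after it began. It was lower in 12 of 15 dogs, and ENO1 was lower in 10 of those 12. The sum and the gene changed in the same direction in 13 of 15 dogs for PGK1, 12 for ENO1, 12 for GAPDH and 9 for HIF1A. The sum and each gene were lower in most dogs, so many of these agreements would arise without a link. All 7 markers had negative changes (-0.68 to -0.25) and 0 of 7 passed. With the log2 of this sum as a covariate, chosen after the data were examined, the change was -0.13 (SE 0.129) for ENO1. It was -0.0027 (SE 0.111) for GAPDH, 0.09 (SE 0.144) for PGK1 and -0.18 (SE 0.139) for HIF1A. Of all 14257 genes, 255 had an unadjusted limma p under 0.05 with this covariate, against 1823 without it. Fewer small p-values were thus seen over all genes. The sum was itself lower in 12 of 15 dogs, so the covariate ran with the timepoint. The part of proliferating cells in the changes of ENO1, GAPDH, PGK1 and HIF1A was not tested.

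For the other cell types 0 markers passed the test over all dogs, and the sums are given as values. The B cell sum, with 2 of 7 listed markers measured, ranged from 1.42 to 221.0 FPKM initially and from 3.30 to 196.6 at the six-week timepoint. It was lower in 12 of 15 dogs, and HIF1A changed in the same direction as it in 13 of 15. HIF1A was itself lower in 12 of 15 dogs, so many of these agreements would arise without a link. The T cell sum (5 of 8 markers) ranged from 19.2 to 701.4 and from 22.4 to 497.3 and was higher in 8 and lower in 7 of 15 dogs. The macrophage and monocyte sum of CSF1R, C1QA, C1QB and MRC1 (4 of 10) ranged from 7.21 to 98.4 and from 4.96 to 304.9, and was higher in 9 of 15 dogs. The stroma and endothelium sum (6 of 7) ranged from 4.76 to 85.8 and from 1.63 to 77.7 and was also higher in 9, with COL1A1 at 0 in 2 libraries and CDH5 in 1. The neutrophil sum of CSF3R and S100A8 (2 of 5) ranged from 0.111 to 23.5 and from 0.416 to 154.8, with S100A8 at 0 in 3 libraries. The erythroid sum of SLC4A1 and AHSP (2 of 6) ranged from 0 to 18.5 and from 0 to 37.5, with SLC4A1 at 0 in 9 libraries and AHSP in 5. The part of these cells in the changes of the 4 genes was not tested.

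**Figure D2:**
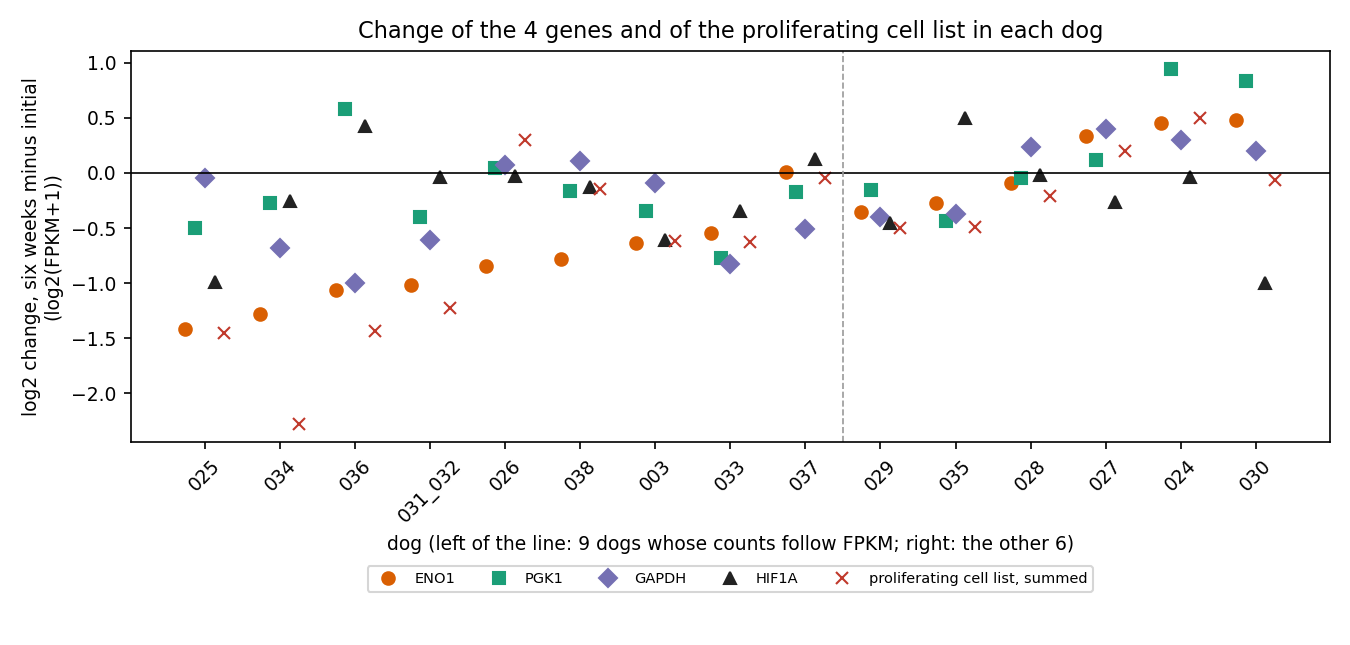
Change of log2(FPKM+1), 6 weeks minus initial (y axis), of ENO1, PGK1, GAPDH, HIF1A and the summed proliferating cell markers in each dog (x axis); dogs left of the dashed line are the 9 whose counts follow FPKM, and dogs are ordered by the ENO1 change within each side. On the left ENO1 is below 0 in 8 of 9 dogs, and on the right it is below 0 in 3 of 6.

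Among the 7 B-Cell dogs none of the 4 genes passed, and HIF1A was lower in 6. Its lowest, median and highest FPKM were 79.7, 112.5 and 194.4 initially and 62.7, 93.8 and 161.4 at the six-week timepoint. The change was -0.40 (SE 0.158, interval -0.74 to -0.07, limma adjusted p = 0.935). ENO1 changed by -0.28 (SE 0.225, adjusted p = 0.935), by -0.12 without dog 034, and was lower in 4 of 7. GAPDH changed by -0.27 (SE 0.174) and PGK1 by -0.11 (SE 0.188), and each was lower in 5 of 7. The order of the changes depended on single dogs, dog 030 among them. Without dog 030 HIF1A was at -0.30, ENO1 at -0.41, GAPDH at -0.35 and PGK1 at -0.27. Without dog 033 PGK1 was at 0.0024, and GAPDH at -0.18. Without dog 029 the changes were -0.39 for HIF1A, -0.27 for ENO1, -0.25 for GAPDH and -0.10 for PGK1. limma called 0% of the genes, with 548 at an unadjusted p under 0.05. The B cell sum was lower in 6 of these 7 dogs and the proliferating cell sum in 6.

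Among the 3 T-Cell dogs, ENO1 was lower at 6 weeks in all 3, and none of the 4 genes passed. ENO1 went from 143.1 to 134.1 FPKM in dog 028, from 164.6 to 78.4 in dog 036 and from 113.1 to 65.2 in dog 038, a change of -0.65 (SE 0.344, interval -1.38 to 0.08, limma adjusted p = 0.300). HIF1A went from 88.3 to 87.2, from 87.5 to 117.8 and from 128.3 to 117.5 in the same dogs, a change of 0.09 (SE 0.241). PGK1 went from 48.0 to 46.5, from 44.3 to 66.7 and from 46.6 to 41.5 (0.12, SE 0.288). GAPDH went from 44.6 to 52.6, from 57.4 to 28.3 and from 44.5 to 48.2 (-0.22, SE 0.266). Dog 036 alone gave HIF1A, PGK1 and GAPDH their signs: without it they were -0.073, -0.10 and 0.17. Without dog 038, whose markers go against its label, the ENO1 change was -0.58 (SE 0.432, adjusted p = 0.470), and HIF1A, PGK1 and GAPDH were at 0.20, 0.27 and -0.38. Without dog 028 they were at 0.15, 0.21 and -0.44. limma called 0% of the genes, with 2862 at an unadjusted p under 0.05. In all 3 dogs the macrophage and stroma sums were higher and the proliferating cell sum was lower at 6 weeks.

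The Unknown dogs held the highest six-week values of ENO1, HIF1A and GAPDH. ENO1 went from 232.8 to 319.3 FPKM in dog 024, from 241.1 to 89.7 in dog 025, from 172.0 to 95.1 in dog 026, from 241.2 to 118.6 in dog 031_032 and from 454.1 to 376.1 in dog 035. It was lower in 4 of 5 dogs, and the change was -0.62 (SE 0.266, interval -1.18 to -0.05, limma adjusted p = 0.951). HIF1A was also lower in 4 of 5 dogs, by -0.12 (SE 0.187) on average, and the change was 0.10 without dog 025 and -0.27 without dog 035. GAPDH changed by -0.13 (SE 0.206) and PGK1 by -0.07 (SE 0.223), each lower in 3 of 5. GAPDH was at -0.24 without dog 024, -0.011 without dog 031_032 and -0.071 without dog 035. PGK1 was at -0.32 without dog 024 and slightly above 0 without dog 025, 031_032 or 035. limma called 0% of the genes, with 650 at an unadjusted p under 0.05.

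The change did not differ detectably between T-Cell and B-Cell dogs in any of the 4 genes. T-Cell minus B-Cell, the difference in change was 0.49 for HIF1A (SE 0.288, interval -0.12 to 1.11, limma adjusted p = 0.404), -0.36 for ENO1 (interval -1.23 to 0.51), 0.23 for PGK1 (interval -0.50 to 0.96) and 0.06 for GAPDH (interval -0.62 to 0.73). Without dog 038 the HIF1A difference was 0.60 (SE 0.339, adjusted p = 0.361), and without dog 029 it was 0.48 (SE 0.308, adjusted p = 0.491). The differences of ENO1, PGK1 and GAPDH were -0.29, 0.38 and -0.11 without dog 038 and -0.37, 0.22 and 0.034 without dog 029. Without dog 036 HIF1A was at 0.33, ENO1 at -0.15, PGK1 at 0.0034 and GAPDH at 0.45, and without dog 028 ENO1 was at -0.64. limma called 0% of the genes for this difference, with 2187 at an unadjusted p under 0.05. The intervals are wide with 3 T-Cell dogs, and a difference of 2-fold in the ENO1 change lies within them.

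Before treatment, T-Cell and B-Cell dogs were compared at each gene. All 4 genes had lower means in the T-Cell dogs: ENO1 140 ± 25.9 FPKM (SD, n = 3) against 193 ± 53.7 (SD, n = 7), PGK1 46.3 ± 1.90 against 58.3 ± 13.02, HIF1A 101 ± 23.3 against 128 ± 40.8, and GAPDH 48.8 ± 7.43 against 56.1 ± 15.3. The differences were -0.42 (interval -1.05 to 0.21), -0.30 (-0.83 to 0.23), -0.29 (-0.95 to 0.36) and -0.16 (-0.70 to 0.38), and none passed (lowest limma adjusted p = 0.410). The values of the groups overlapped for all 4 genes. limma called 49 of 14257 genes, 0.344%, and 3106 had an unadjusted p under 0.05. Without dog 038 the ENO1 difference was -0.28 (adjusted p = 0.614) and that of HIF1A -0.47 (adjusted p = 0.382), with PGK1 at -0.30 and GAPDH at -0.099. Without dog 029 the ENO1 difference was -0.54 (adjusted p = 0.210), with HIF1A at -0.28, PGK1 at -0.36 and GAPDH at -0.27. The number of genes called was 2296 without dog 038 and 1300 without dog 029, and none of the 4 genes was among them.

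At the six-week timepoint ENO1 was again lower in the T-Cell dogs, at 92.6 ± 36.6 FPKM (SD, n = 3) against 180 ± 106 (SD, n = 7). The difference was -0.78 (SE 0.561, interval -1.97 to 0.41, limma adjusted p = 0.670). Without dog 038 it was -0.57 (adjusted p = 0.779) and without dog 029 -0.91 (adjusted p = 0.579). HIF1A, GAPDH and PGK1 were at 0.13, -0.21 and 0.074 without dog 038 and at 0.20, -0.24 and -0.13 without dog 029. HIF1A was 107.5 ± 17.6 against 96.9 ± 33.6 (difference 0.20, interval -0.49 to 0.89). GAPDH and PGK1 differed by -0.10 (interval -0.94 to 0.73) and -0.07 (interval -0.98 to 0.84). With another scaling of the libraries GAPDH and PGK1 were at 0.0064 and 0.045, so that neither has a direction. limma called 0% of the genes, with 1245 at an unadjusted p under 0.05.

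Unknown dogs had higher initial means of the 3 enzymes than B-Cell dogs and a lower mean of HIF1A, and none of the differences passed. ENO1 was 268 ± 108 FPKM (SD, n = 5) against 193 ± 53.7 (SD, n = 7), a difference of 0.45 (interval -0.09 to 0.98). GAPDH was 76.2 ± 21.2 against 56.1 ± 15.3 (0.44, interval -0.02 to 0.90), PGK1 74.7 ± 28.9 against 58.3 ± 13.02 (0.31, interval -0.14 to 0.76), and HIF1A 113.5 ± 46.5 against 128 ± 40.8 (-0.20, interval -0.75 to 0.36). The limma adjusted p was 0.993 for each of the 4 genes. Without dog 029 the differences were 0.33 for ENO1, 0.33 for GAPDH, 0.25 for PGK1 and -0.18 for HIF1A. Without dog 035 ENO1 was at 0.24 and PGK1 at 0.11, and HIF1A was at -0.065 without dog 026 and -0.39 without dog 025. limma called 0% of the genes, with 420 at an unadjusted p under 0.05. The initial B cell sum was 68.5 to 132.8 FPKM in the Unknown dogs and 63.8 to 221.0 in the B-Cell dogs. The T cell sum was 19.2 to 103.1 and 23.6 to 399.5, so these sums did not set the groups apart.

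**Figure D3:**
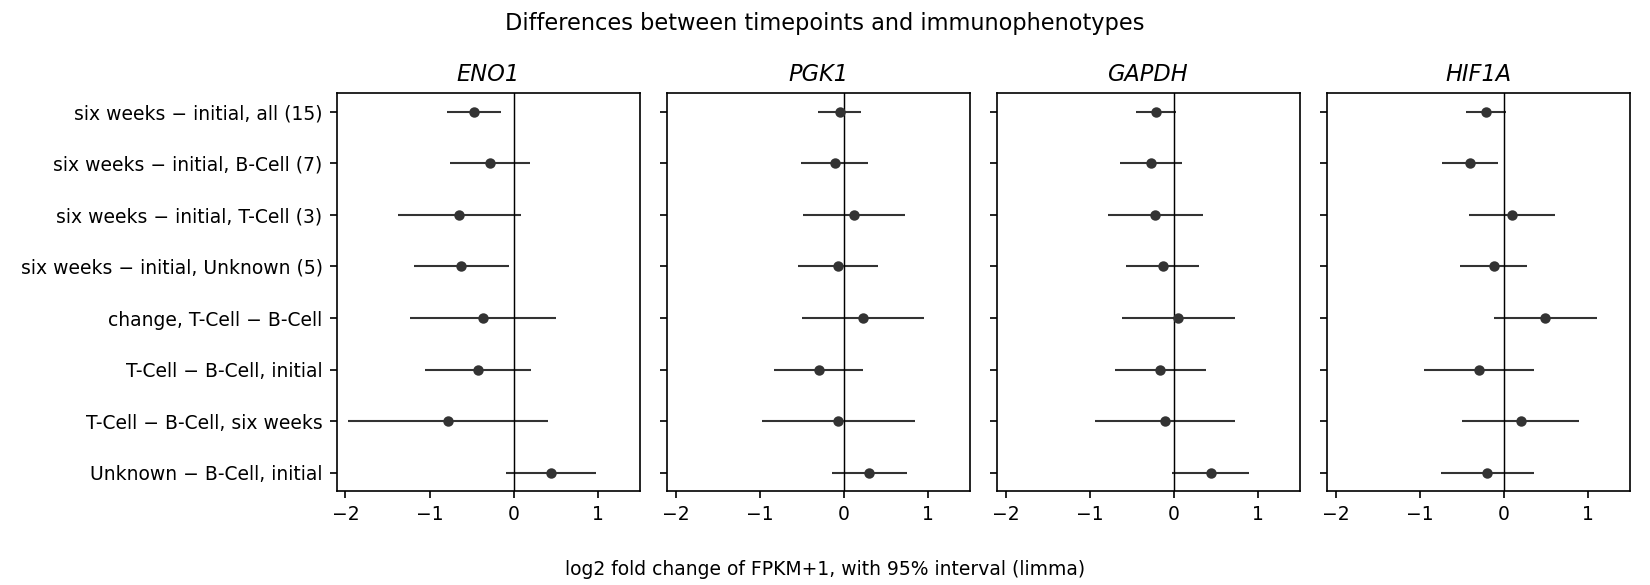
Log2 fold change of FPKM+1 (x axis) of ENO1, PGK1, GAPDH and HIF1A in 8 comparisons (rows, with the number of dogs for the changes over time); points are limma estimates and bars 95% intervals. The interval of ENO1 over all dogs, -0.79 to -0.15, and that of HIF1A in B-Cell dogs, -0.74 to -0.07, lie below 0 without adjustment for the number of genes, as does that of ENO1 in Unknown dogs, -1.18 to -0.05. Every other interval crosses 0.

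The levels of the 3 enzymes followed each other across dogs, and HIF1A did not follow them closely. At the initial timepoint the Spearman correlation over 15 dogs was 0.882 between ENO1 and PGK1, 0.707 between GAPDH and ENO1 and 0.675 between GAPDH and PGK1. PGK1 ranked 4 among 14254 genes in likeness to ENO1, and ENO1 ranked 2 in likeness to PGK1, but the ranks at the six-week timepoint were 1381 and 849. GAPDH ranked 181 for ENO1 and 268 for PGK1 before treatment, and in likeness to GAPDH ENO1 ranked 385 and PGK1 491. HIF1A had 0.354 with PGK1, 0.175 with ENO1 and 0.125 with GAPDH. At the six-week timepoint the enzymes had 0.661 (ENO1 and PGK1), 0.696 (GAPDH and ENO1) and 0.796 (GAPDH and PGK1), and HIF1A had 0.321 with PGK1, 0.150 with GAPDH and -0.01 with ENO1. The changes correlated less, with 0.571 for GAPDH and ENO1, 0.511 for GAPDH and PGK1, 0.486 for ENO1 and PGK1, and -0.17 to 0.13 for HIF1A with the 3 enzymes. Genes of a library share its depth, its RNA and its mix of cells, so these values are descriptions.

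Among genes with a symbol, those most like HIF1A over the 15 initial libraries were C1GALT1, an enzyme of O-glycan synthesis (Spearman 0.900), RHEB, the GTPase that activates mTORC1 (0.864), and ARHGAP15, a GTPase-activating protein for Rac (0.839). The genes most like GAPDH were the mitotic kinase AURKA, also on the proliferating cell list (0.929), and the proteasome subunits PSMB1 (0.907) and PSMB3 (0.886). PGK1 was most like SMARCA5, an ATPase that moves nucleosomes (0.886), then ENO1 and the autophagy protease ATG4C (0.864). ENO1 was most like PGK1, SMARCA5 (0.879) and LARP4, an RNA-binding protein (0.875). None of the 3 enzymes was among the genes nearest to HIF1A.

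**Figure D4:**
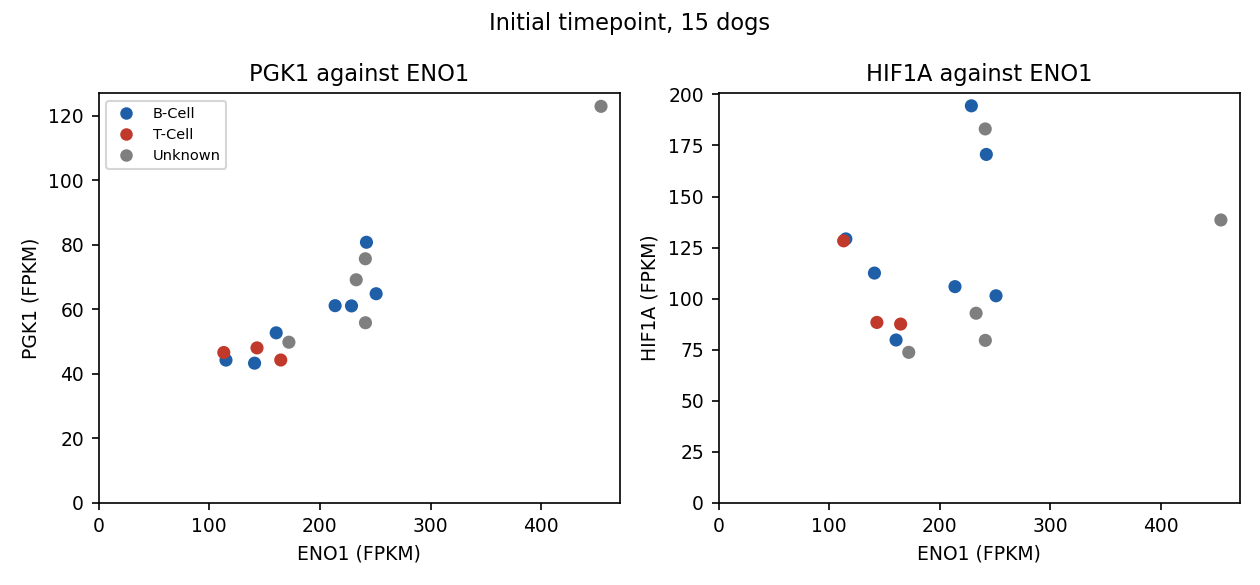
FPKM of PGK1 (left, y axis) and of HIF1A (right, y axis) against FPKM of ENO1 (x axis) at the initial timepoint; each point is a dog, colored by immunophenotype label. PGK1 rises with ENO1 (Spearman 0.882, n = 15) up to dog 035 at 454.1 FPKM of ENO1, and HIF1A is spread from 73.7 to 194.4 with no such order (0.175).

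Other genes of glucose metabolism came from lists that hold 68 genes, of which 14 had an ID and 12 passed the filter. 0 of 12 passed in the comparison of timepoints over all dogs, and 8 of 12 had a negative change, with a median of -0.15 beside -0.01 over all genes. Their IDs too came from tables shortened by p-value, so the medians are not a like comparison. Of 15 listed glycolysis enzymes 4 were tested, and all 4 were below 0. PFKL and PFKP, subunits of phosphofructokinase, which commits glucose to glycolysis, changed by -0.40 (SE 0.203, limma adjusted p = 0.412) and -0.34 (SE 0.171, adjusted p = 0.411). PFKL ranged from 0.358 to 49.1 FPKM over the initial libraries. LDHB, the lactate dehydrogenase subunit known to favour the turn of lactate to pyruvate, changed by -0.33 (SE 0.149, adjusted p = 0.363). Its level was 368 ± 122 FPKM initially and 305 ± 145 at the six-week timepoint (SD, n = 15), with means above those of ENO1. GPI, which isomerizes glucose 6-phosphate, changed by -0.06.

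Of 7 transporters, SLC2A3, a glucose transporter of lymphocytes and neurons, was the one tested. It was 13.8 ± 8.34 FPKM initially and 18.2 ± 13.9 at the six-week timepoint (SD, n = 15) and higher in 10 of 15 dogs, a change of 0.29 (SE 0.154, limma adjusted p = 0.433). The lactate exporter SLC16A3 and the transporter SLC2A8 lay below the filter, with medians of 0.0906 and 0.248 FPKM at the initial timepoint.

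Regulators of pyruvate entry into mitochondria were represented by 4 of 14 genes. PDK1, PDK3 and PDK4 encode kinases that inactivate pyruvate dehydrogenase, and PDHA1 encodes its catalytic subunit. PDK1, a known HIF-1 target, was lower in 12 of 15 dogs, at 47.3 ± 17.5 and 39.4 ± 12.6 FPKM (SD, n = 15), a change of -0.24 (SE 0.101, limma adjusted p = 0.344). PDHA1 was lower in 10 of 15 (-0.29, SE 0.120, adjusted p = 0.334) and PDK3 in 9 of 15 (-0.23, SE 0.098, adjusted p = 0.346). PDK4 was higher in 10 of 15 dogs, with medians of 0.450 and 1.09 FPKM, near the filter (0.67, SE 0.287, adjusted p = 0.352).

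Among 13 other genes that HIF-1 is known to activate, CA9, a carbonic anhydrase, and the histone demethylase KDM3A were tested. Their changes were -0.02 (SE 0.103) and 0.02 (SE 0.110), with limma adjusted p = 0.961 and 0.957. KDM3A was 30.7 ± 16.6 FPKM initially and 30.1 ± 11.8 at the six-week timepoint (SD, n = 15). CA9 had medians of 0.561 and 0.465 FPKM, with a highest value of 14.7. None of the 9 listed HIF subunits, hydroxylases and VHL had an ID.

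By immunophenotype 0 of these 12 genes passed in any comparison. In the T-Cell dogs PDK1 changed by -0.76 (SE 0.190, limma adjusted p = 0.109), PFKL by -0.98 (SE 0.451, adjusted p = 0.236), PFKP by -0.84 (SE 0.378, adjusted p = 0.231) and PDK4 by 1.61 (SE 0.612, adjusted p = 0.176). In the B-Cell dogs PDK1 changed by -0.13 (SE 0.124), and the difference in change, T-Cell minus B-Cell, was -0.63 (SE 0.227, adjusted p = 0.242). The T-Cell values include dog 038 and the B-Cell values dog 029. For these genes the values without those dogs were not examined.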

How the data were processed

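The 30 libraries were single-read, 75 bp, from RNA with an integrity number above 9. The authors aligned reads with HISAT2 2.1.0 to CanFam3.1 (Ensembl release 104) and assembled and counted them with StringTie 1.3.3. The FPKM values the authors deposited are divided by transcript length and depth. The read counts the authors deposited are whole numbers with no scaling. The members and lists were chosen with earlier results of these data known. Symbols came from the study's tables, which are shortened by p-value and name 5086 gene IDs. A listed gene outside these tables has no ID here. The tables include the study's tests between timepoints, so a gene could gain its ID through a small p-value in a comparison made here.

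FPKM values were tested as log2(FPKM+1) with limma 3.58.1 in R 4.3.3, for gene IDs with a mean FPKM above 1, with dogs as blocks where timepoints were compared, and p-values adjusted by Benjamini-Hochberg over all 14257. edgeR 4.0.16 and DESeq2 1.42.0 were run on the counts of the 9 dogs for gene IDs with a mean normalized count above 50. Scripts were tested on simulated data. Dogs were paired by the number in their labels, and dog 031_032 by elimination. As a check, deviations from the timepoint mean correlated between the libraries of a dog with a median of 0.601, above 0.1 in 14 of 15 dogs, but 9 of 15 correlated best with their own partner. Dogs 025 (-0.114), 031_032 (0.344), 034 (0.231), 036 (0.111), 037 (0.136) and 038 (0.317) did not. All of these are among the 9 dogs whose counts follow FPKM. Where none of a list's genes passed, the 3 with the largest change were named, and 1 listed gene that was tested is not reported here. Other genes named are the remaining members of short lists, and those named within the T-Cell dogs, both chosen after their values were seen, and the 3 most alike genes with a symbol for each member. Alternatives were another pseudocount, filter and scaling, no block, and each dog left out in turn.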

Additional observations from a re-analysis of the deposited data

Results flagged for a closer look

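In 4 of 24 sets of values, each 1 gene in the B-Cell or the Unknown dogs (FPKM at a timepoint, or the change), 1 library lay far from the others by Dixon's ratio at the 95% level. Chance flags about 1 in 20 sets where values are normal and sets independent. FPKM was not put on a log scale for this, and the sets share dogs, so that rate is no measure of how unusual 4 flags are. All 4 flagged values were the highest FPKM of their set, and no change was flagged. HIF1A was 195.6 FPKM in the six-week library of dog 035 (Unknown), where the other 4 Unknown dogs had 72.3 to 91.4. ENO1 was 454.1 FPKM in the initial library of the same dog, where the others had 172.0 to 241.2. GAPDH was 130.7 FPKM in the six-week library of dog 024 (Unknown), where the others had 46.7 to 68.4. PGK1 was 145.0 FPKM in the six-week library of dog 030 (B-Cell), where the others had 30.5 to 66.5. The T-Cell sets, with 3 dogs each, were not examined.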

How the results depend on the processing

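Of 616 values of the 4 genes under the alternatives, 592 kept their direction and their side of the threshold, 1 passed it and 23 changed sign. The number of the 4 genes past the threshold over all dogs was 1 with DESeq2 on the counts of 9 dogs (ENO1, -0.86) and 1 or 2 when a dog was left out of that fit, and 0 with limma and edgeR. Over all dogs, the changes within the 6 dogs whose counts do not follow FPKM were 0.093 for ENO1, 0.060 for GAPDH and 0.21 for PGK1, and with the proliferating cell sum as a covariate PGK1 was at 0.089; all were added after the data were examined. With median-of-ratios scaling the T-Cell against B-Cell differences at the six-week timepoint were 0.0064 for GAPDH and 0.045 for PGK1. With each dog left out in turn, the PGK1 change ranged from -0.12 to 0.0031 over all dogs (above 0 without dog 033), from -0.27 to 0.0024 in B-Cell dogs and from -0.32 to 0.040 in Unknown dogs. In T-Cell dogs HIF1A ranged from -0.073 to 0.20, GAPDH from -0.44 to 0.17 and PGK1 from -0.10 to 0.27, and in Unknown dogs HIF1A ranged from -0.27 to 0.10. The T-Cell minus B-Cell difference in change of GAPDH ranged from -0.17 to 0.45, and the six-week T-Cell against B-Cell differences from -0.27 to 0.17 for GAPDH and from -0.26 to 0.17 for PGK1. ENO1 over all dogs ranged from -0.54 to -0.40 (limma adjusted p = 0.234 to 0.580). Without the dog as a block, ENO1 over all dogs had the same change of -0.47 with a larger SE (0.259), and the block changed no call of the 4 genes. The causes of these shifts were not tested.

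Counts over all genes moved more. With no filter on low values limma called 3054 genes over all dogs, 2832 of them with a mean FPKM of at most 1. The T-Cell change called 0 genes, 13 with a pseudocount of 0.1 and 1491 without dog 028, the difference in change 0, 4 and 612 likewise. T-Cell against B-Cell at the initial timepoint called 49 (15 higher and 34 lower), 6 with no filter, 198 with median-of-ratios scaling (129 higher and 69 lower), and 1 to 2296 with a dog left out. The ratios of LDHA to LDHB, HK2 to HK1 and SLC2A1 to SLC2A3 were not run, since the first gene of each had no ID. Members without an ID, 3 T-Cell dogs, the label of dog 038 and the many T cell transcripts of dog 029 limit what these values show.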
